A study of Mus musculus with 12 samples.

Results

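Whole aortas of mice lacking both Prkch and Apoe were compared with aortas of mice lacking Apoe alone on 2 arrays, 1 for each genotype, out of 12 arrays in the series. The members were taken by the tissue and genotype given in the labels, with no use of measured values. Each array held 1 pool of total RNA from 4 male mice aged 20 weeks, fed a high-fat diet for 12 weeks, in the fed state, with no further treatment. Both lines were on C57BL/6J after more than 12 generations of backcrossing, both lacked Apoe, and neither genotype had an aorta with intact Apoe beside it. The vessels were taken after perfusion with 30 ml of saline through the left ventricle. The other arrays held peritoneal macrophages (6) and liver (4), and only the liver arrays are used below. The pool with Prkch (Apoe-/-) is called the control pool, and the pool without it (Prkch-/-Apoe-/-) the knockout pool. With 1 pool for each genotype, a difference between genotypes and a difference between 2 pools of aortas cannot be told apart, and no p-value was computed for the aorta.

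Prkch encodes protein kinase C eta, an isoform of the protein kinase C family of the group that answers to diacylglycerol but not to calcium, and is best known in epithelia and lymphocytes. Loss of Apoe leaves remnant lipoproteins in the blood, and on a fatty diet lipid-laden plaques build up in the aortic wall. The wall is made of smooth muscle, endothelium and fibroblasts, with macrophages and lymphocytes in plaques and in the outer coat, where lymphoid aggregates can form. The dissected vessel runs past fat, back muscle, lymph nodes and the adrenal glands.

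Signals were linear, and differences are given as log2(signal + 16) in the knockout pool minus the same in the control pool, a scale that understates differences of dim genes. A gene was represented by its brightest probe set and kept where the brighter of both arrays reached 32.6, the median over probe sets. Median signals were 27.8 (control) and 30.1 (knockout), and the mean after trimming 2% at each end was 100.0 on both. The hybridisation controls, bacterial transcripts added in fixed amounts before hybridisation, were higher on the knockout array for 18 of 18 probe sets, by a median of 0.51 (range 0.33 to 1.03). Of the poly-A controls added to the RNA, dap and thr were higher there by medians of 1.03 and 0.87, while lys and phe differed by -0.01 and 0.08. The ratio of 3′ to 5′ signal, which rises as RNA is degraded or incompletely copied, was 1.39 and 1.90 for beta-actin and 0.81 and 0.92 for Gapdh in the control and knockout pools. The part of these array differences in the results below was not tested.

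Prkch itself was dim in both pools. Its single probe set read 17.2 (control) and 9.94 (knockout), a difference of -0.36, with both values under the filter. The signal was thus lower in the pool that lacks the gene, but at a level where the array gives no firm check of the genotype, and the labels leave unsaid what stretch of the gene the knockout deletes. Of the protein kinase C relatives, 5 of the 9 on the array were kept, and none differed by 2-fold. Prkcb, an isoform of B cells and myeloid cells, read 57.2 and 86.4 (0.48), while Prkcd, Prkce, Prkci and Prkd1 differed by between -0.11 and 0.01.

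Most genes read alike in both pools. Of 12393 genes, 7097 were kept; their differences had a median of -0.01 and a standard deviation of 0.33, and 91.7% lay within 0.5 of 0. The count of genes at least 2-fold higher in the knockout pool was 62 (0.874%), and 28 (0.395%) were at least 2-fold lower. The split of 62 higher and 28 lower became 54 and 39 with each array centred on its median, and 30 and 191 with the arrays scaled to the hybridisation controls, which moved the median of all kept genes to -0.44. Of the genes at least 4-fold apart, 13 were higher and 1, Trdn, was lower. The control signal of 33 of the 62 higher genes was under the filter, so these were kept through the knockout pool alone and had to differ, whereas 4 of the 28 lower genes were kept through the control pool alone.

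**Figure D1:**
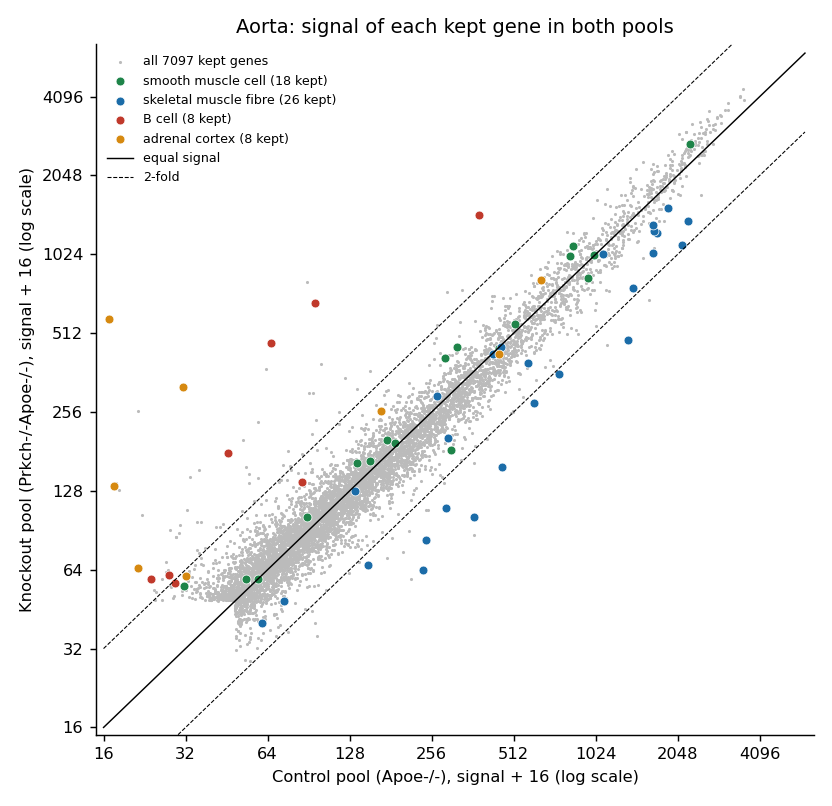
Signal + 16 of the control (x axis) and knockout (y axis) pools, both on log scales, for 7097 kept genes (grey) and the kept members of 4 gene lists (colours); the solid line marks equal signal and the dashed lines 2-fold. B cell and adrenal cortex genes lie above the upper dashed line in 6 and 4 cases, 9 skeletal muscle genes lie below the lower one, and smooth muscle genes lie between them.

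Genes of steroid hormone synthesis, dim in the control pool, were among the largest differences. Hsd3b1, whose enzyme turns pregnenolone into progesterone, read 0.81 (control) and 563 (knockout), a difference of 5.11 (34.4-fold on the offset scale). Star, which carries cholesterol into the mitochondrion and so starts steroid synthesis, read 15.3 and 302 (3.34). Cyp11a1, which cuts the cholesterol side chain, read 1.45 and 117 (2.93), and Cyp21a1, the 21-hydroxylase of corticosteroid synthesis, 5.40 and 49.2 (1.61). These 4 genes cover successive steps from cholesterol to corticosteroids, and each was under the filter in the control pool and above it in the knockout pool.

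The rest of the adrenal cortex list was less uneven. Mc2r, the receptor for corticotropin, read 16.1 and 44.3 (0.91), and Scarb1, the receptor that takes up cholesterol from high-density lipoprotein, 151 and 242 (0.63). Mc2r, under the filter in the control pool, was kept through the knockout pool alone and had to read higher. Fdx1, which passes electrons to mitochondrial P450 enzymes in several tissues, read 629 and 798 (0.34), and Mrap, a partner of Mc2r also made in fat, 437 and 409 (-0.09). Cyp11b2, the aldosterone synthase, and Nr5a1, the transcription factor that sets steroid-making identity, stayed dim in both pools, at 4.51 and 13.8 for Cyp11b2 and at 1.49 and 9.27 for Nr5a1. Over all 10 list genes on the array, 9 were above 0, 4 were past 2-fold higher and the median was 0.77. Of all 12393 genes on the array, 6743 were above 0, 67 were past 2-fold higher and the median was 0.02. Summed over the list, signals came to 1263 (control) and 2547 (knockout).

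The genes next described lay outside the list and were picked by hand from those past 2-fold, so they are no evidence of a theme. Akr1cl, an aldo-keto reductase of the family that reduces steroids, read 5.50 and 243 (3.59). Mgarp, a mitochondrial protein of steroid-making cells, read 1.75 and 121 (2.95), and Hao2, a peroxisomal hydroxyacid oxidase, 2.24 and 113 (2.82). Abcb1b, a drug and steroid exporter, was present in both pools at 47.2 and 357 (2.56). Cyp2b10, a drug-metabolising P450, read 74.5 and 287 (1.74). Hsd3b1, Akr1cl and Cyp2b10 belong to families with closely similar copies, so their probe sets may also read relatives.

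Granule proteins of neuroendocrine cells were higher without the enzymes of catecholamine synthesis. Chromogranin A (Chga) read 17.1 and 129 (2.13), chromogranin B (Chgb) 84.9 and 375 (1.95), and secretogranin II (Scg2) 80.1 and 222 (1.31). Chga, under the filter in the control pool, was kept through the knockout pool alone and had to read higher. Tyrosine hydroxylase (Th), which starts catecholamine synthesis, read 133 and 128 (-0.05). Dopamine beta-hydroxylase (Dbh), which makes noradrenaline, read 122 and 97.8 (-0.28), and Pnmt, which makes adrenaline, 28.4 and 39.7 (0.33). Neuropeptide Y (Npy), a sympathetic transmitter, read 531 and 460 (-0.20). Thus 3 of the 9 list genes on the array were past 2-fold, all granule proteins, and the median over all 9 was 0.08. Among all 12393 genes on the array, 67 were past 2-fold higher and the median was 0.02.

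**Figure D2:**
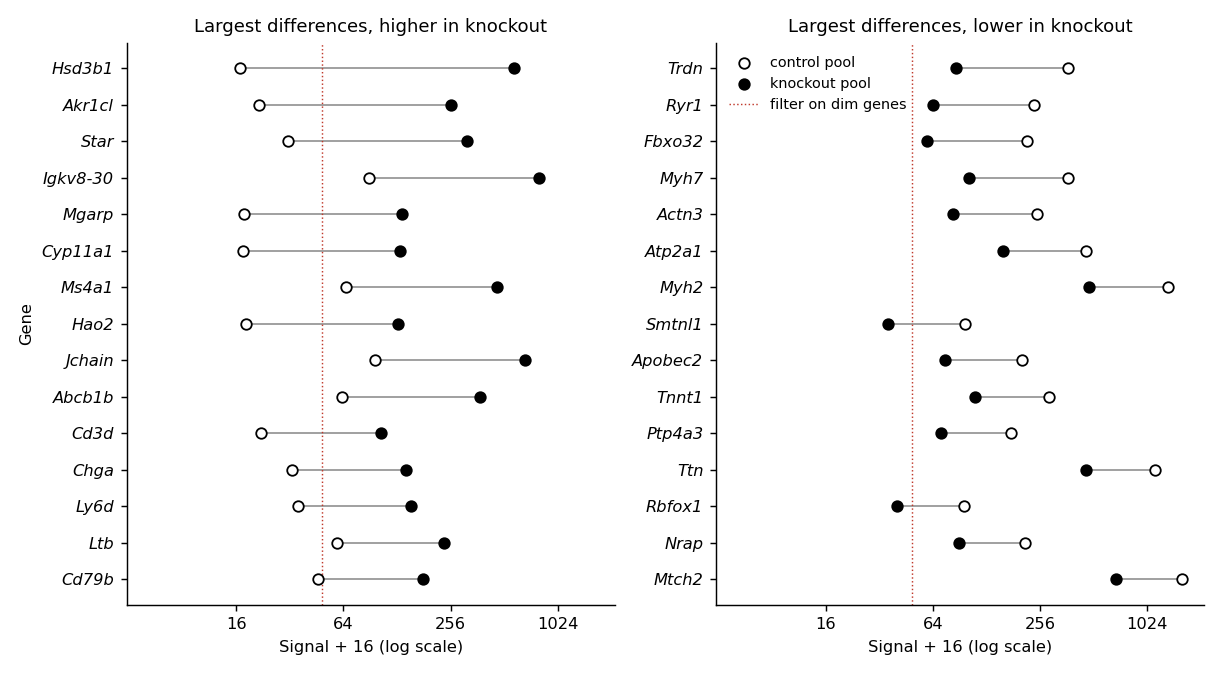
Signal + 16 (x axis, log scale) in the control pool (open circles) and the knockout pool (filled circles) for the 15 genes furthest above equal signal in the knockout pool and the 15 furthest below it; the dotted line is the filter on dim genes. The control values of Hsd3b1, Akr1cl, Star, Mgarp, Cyp11a1, Hao2, Cd3d, Chga, Ly6d and Cd79b lie left of that line. All of the lower genes shown start above it in the control pool.

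B cell genes formed the listed group with the most genes past 2-fold higher. Ms4a1, the B cell surface protein CD20, read 49.9 (control) and 453 (knockout) (2.83). Jchain, which joins secreted IgM and IgA, read 79.7 and 651 (2.80), and Ighm, the IgM heavy chain, 366 and 1431 (1.92). Cd79b, a signalling chain of the B cell receptor, read 29.8 and 162 (1.96). The Fc receptor-like Fcrla (7.93 and 43.2, 1.31) and the transcription factor Spib (11.7 and 45.0, 1.14) were also past 2-fold. The control values of Cd79b, Fcrla and Spib were under the filter, so these genes were kept through the knockout pool alone and had to read higher. Cd22 and Cr2, an inhibitory receptor and a complement receptor of B cells, differed by 0.69 and 0.95. Cr2, with a control value of 13.4, was likewise kept through the knockout pool alone.

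The markers were not uniform, however. Cd79a, the partner of Cd79b, was dim at 8.54 and 13.2, and so were Pax5, the factor that fixes B cell identity (0.25 and 3.33), and the kinase Blk (12.0 and 27.1). Over all 11 list genes on the array, 11 were above 0, 6 were past 2-fold higher and the median was 1.14. Of all 12393 genes on the array, 6743 were above 0, 67 were past 2-fold higher and the median was 0.02. The summed signal of the list was 649 and 2992. In such bulk samples, more cells of a type and more RNA for each cell cannot be told apart.

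The B cell and antibody genes next described lay outside the list. They were picked from genes past 2-fold after their values were seen, so they are no evidence of a theme. The control values of Iglv1, Tnfrsf13c, Pou2af1 and Ly6d were under the filter. These genes were kept through the knockout pool alone and had to read higher. The light-chain segment Igkv8-30 read 73.3 and 789 (3.17), and Iglv1 14.4 and 78.6 (1.64). Antibody segments are a family of near-identical copies, so these names mark the family rather than single genes. Tnfrsf13c, the receptor for the B cell survival factor BAFF, read 14.3 and 72.2 (1.54), and Pou2af1, a B cell coactivator of octamer factors, 19.2 and 81.4 (1.47). Ly6d, a surface marker of B lineage cells, read 19.8 and 138 (2.11). The IgA heavy chain Igha went the other way, at 60.1 and 21.1 (-1.04), although its 3 kept probe sets ran from -1.04 to 0.10.

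Several T cell genes, lymphotoxin beta and the chemokine Cxcl13 were also higher. Cd3d, a chain of the T cell receptor complex, read 6.08 and 87.5 (2.23), and Cd2, an adhesion receptor of T cells, 9.01 and 36.6 (1.07). Cd3g read 12.9 and 39.8 (0.95), while Cd3e, Cd4, Cd8a and Cd8b1 stayed under the filter in both pools. Cd3d, Cd2 and Cd3g were kept through the knockout pool alone and so had to read higher. Il7r, the listed gene above the filter in both pools, read 110 and 122 (0.13). All 10 T cell genes on the array were above 0, 2 were past 2-fold, the median was 0.55 and the summed signal was 172 and 356. Beside this, 6743 of all 12393 genes were above 0 and 67 were past 2-fold higher. Lymphotoxin beta (Ltb), with which lymphocytes instruct stromal cells, read 43.2 and 219 (1.99). Ltb lay in no list and was named for the size of its difference. Cxcl13, the chemokine that draws B cells into follicles, read 77.5 and 287 (1.69) and was the single chemokine past 2-fold of 15 kept.

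Other leukocyte genes were uneven. Ptprc, the pan-leukocyte surface protein CD45, read 252 and 532 (1.03), Coro1a, an actin regulator of leukocytes, 107 and 328 (1.48), and Cd52, a lymphocyte surface peptide, 276 and 718 (1.33); these 3 were picked from the genes past 2-fold after their values were seen. Itgb2, the beta chain of leukocyte integrins, read 249 and 241 (-0.04), the lysosomal Laptm5 447 and 477 (0.09), and Selplg, the selectin ligand, 64.7 and 70.9 (0.11). Of the macrophage markers 15 of 15 were kept, none was past 2-fold, and the median was 0.10. Neutrophil and mast cell lists had 3 and 1 kept members, none of them past 2-fold.

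Antigen presentation by MHC class II was higher by less than 2-fold in most members. H2-Aa and H2-Ab1, chains of the I-A molecule, read 1015 and 1628 (0.67) and 245 and 455 (0.85). H2-Eb1 differed by 0.68 and Cd74, the invariant chain, by 0.63. H2-Oa, part of the H2-O molecule that restrains peptide loading in B cells, was the member past 2-fold, at 11.1 and 52.7 (1.34). Its control value was under the filter, so H2-Oa was kept through the knockout pool alone and had to read higher. Ctss and Ifi30, lysosomal enzymes that prepare peptides and are abundant in macrophages, differed by 0.11 and -0.02. Of the 10 members on the array 9 were above 0, with a median of 0.65. Of all 12393 genes on the array, 6743 were above 0, 67 were past 2-fold higher and the median was 0.02. With both arrays required to pass the filter, 7 list genes remained, with a median of 0.63.

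Several genes of DNA replication were higher from low control values. Mcm2, a subunit of the replicative helicase, read 13.4 and 69.0 (1.53), and Rrm2, the small subunit of ribonucleotide reductase, 19.9 and 58.3 (1.05); both values came from probe sets that can cross-read, and neither gene was counted without such probe sets. The replication-clamp partner Pclaf read 38.6 and 121 (1.33). The proliferation marker Mki67 read 16.8 and 45.6 (0.91) and Top2a, the mitotic topoisomerase, 15.8 and 40.3 (0.83). The control values of Mcm2, Rrm2, Mki67 and Top2a were under the filter. These genes were kept through the knockout pool alone and had to read higher. Of 24 cell cycle genes on the array 22 were above 0, but 14 were dim in both pools and the median was 0.25. Of all 12393 genes on the array, 6743 were above 0 and the median was 0.02. With both arrays required to pass the filter, 4 list genes remained, with a median of 0.27.

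**Figure D3:**
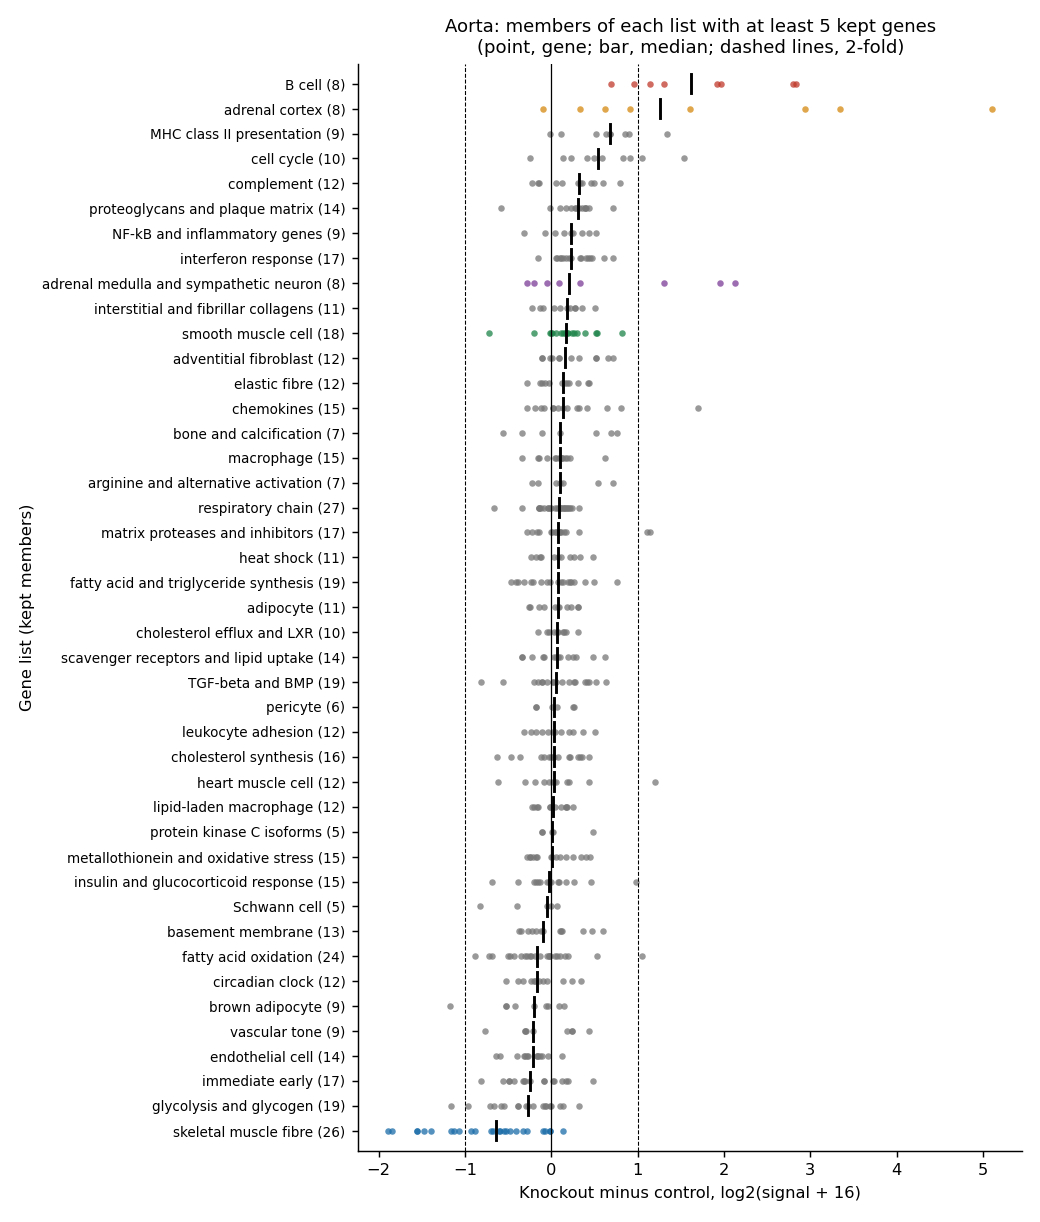
Differences, knockout minus control in log2(signal + 16) (x axis), of the kept members (points) of the 43 gene lists with at least 5 kept genes (y axis, number kept in brackets); bars are medians, dashed lines mark 2-fold, and colours set off 5 of the lists. The B cell and adrenal cortex lists lie at the top with medians of 1.61 and 1.26 over kept members. Several members of both were kept through the knockout pool alone and so had to read higher. With both arrays required to pass the filter, the medians were 2.36 over 4 B cell genes and 0.34 over 3 adrenal cortex genes. Skeletal muscle lies at the bottom with -0.64, and 34 of the 43 medians are within 0.25 of 0.

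Genes of skeletal muscle fibres were lower in the knockout pool, and most of them were above the filter in both pools. Of 28 listed genes 26 were on the array and all 26 were kept. Of these, 9 were at least 2-fold lower, none was 2-fold higher and 1 was above 0. Among all kept genes, 0.395% were at least 2-fold lower and 0.874% at least 2-fold higher. The median of the list was -0.64 against -0.01 over all kept genes. Summed over the list, signals came to 21768 (control) and 13932 (knockout). The median stayed below 0 under every alternative run, between -1.11 and -0.58. The knockout values of Cacna1s and Tnni1 were under the filter. Both genes were kept through the control pool alone and had to read lower. With both arrays required to pass the filter, 24 list genes remained, with a median of -0.69.

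The members differed widely, also within a role. Among calcium-handling genes, Ryr1, the calcium release channel, read 222 and 48.1 (-1.89), and Atp2a1, the pump that returns calcium to the store, 446 and 142 (-1.55). The calcium buffers of the same fibres did not share this: calsequestrin (Casq1) read 118 and 112 (-0.07) and parvalbumin (Pvalb) 442 and 437 (-0.02). The voltage sensor Cacna1s read 45.1 and 24.1 (-0.61), but was kept through the control pool alone and had to read lower.

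Among the thick filament genes, the heavy chains of myosin were lower by more than their light chains. Myh7, the slow heavy chain, read 349 and 85.5 (-1.85), Myh2 1324 and 465 (-1.48), Myh4 734 and 340 (-1.07) and Myh1 2115 and 1099 (-0.93). The heavy chains are close copies of each other, so probe sets may cross-read. The light chains Myl1 (1703 and 1220) and Mylpf (1077 and 1007) differed by -0.48 and -0.10.

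Thin filament and Z-disc genes spread over the same range. Skeletal actin (Acta1) read 2213 and 1361 (-0.70), Actn3, the fast-fibre alpha-actinin, 229 and 67.0 (-1.56), and Myot, a Z-disc protein, 590 and 262 (-1.13). Slow troponin T (Tnnt1) read 273 and 94.2 (-1.39), fast troponin T (Tnnt3) 1386 and 742 (-0.89), and the troponin C genes Tnnc2 and Tnnc1 differed by -0.29 and 0.13. Tcap, the small cap of titin, read 415 and 410 (-0.02). The enzymes of the list were lower too, with Pygm, muscle glycogen phosphorylase, at 133 and 50.7 (-1.16) and creatine kinase (Ckm) at 1645 and 1021 (-0.68).

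The difference ran with the span of the gene in the genome. Across the 26 members Spearman's rho between span and difference was -0.53, with the longer genes lower, whereas over 7092 kept genes with a span it was -0.03. These points share 1 pair of arrays, and span was taken from the RefSeq gene table, not from the probed end of the transcript. The 3′ to 5′ ratio of beta-actin was also the higher in the knockout pool, as given above; its part in this pattern was not tested.

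**Figure D4:**
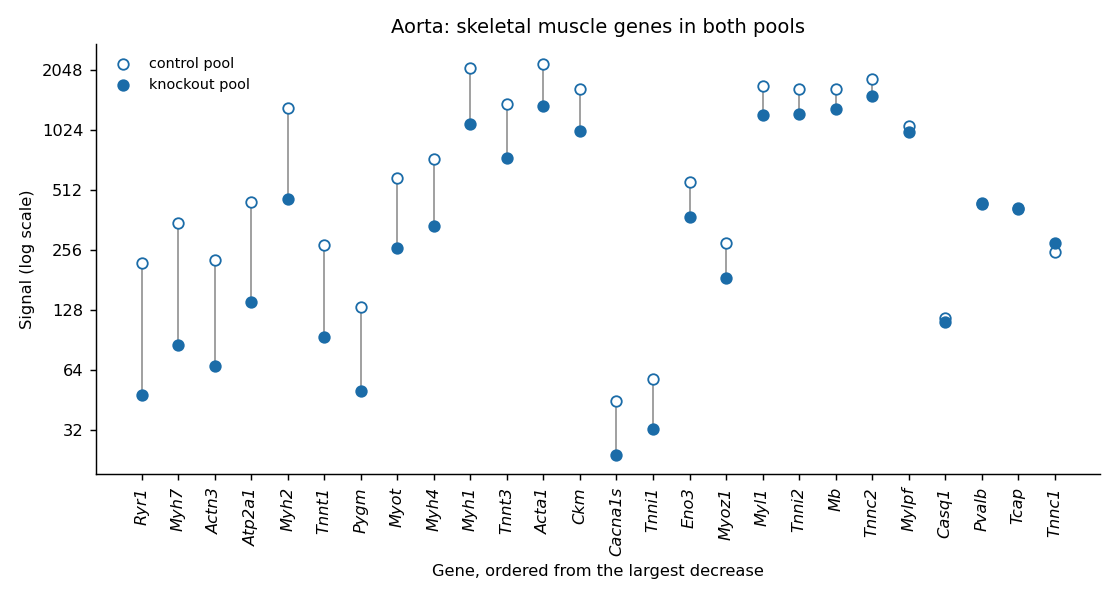
Signal (y axis, log scale) of the 26 skeletal muscle genes in the control pool (open circles) and the knockout pool (filled circles), ordered from the largest decrease. From Ryr1 to Myh4 the first 9 genes are at least 2-fold lower, while Pvalb, Tcap and Casq1 nearly coincide and Tnnc1 is slightly higher.

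To set these transcripts beside their control regions, RefSeq promoter windows (GRCm38.p6, 250 bases before to 50 after each annotated start) were searched for the E-box CAGCTG, a form of the general E-box bound by myogenic factors that reads the same on both strands. Windows existed for 20 of the 26 genes, and 12 (60.0%) had the motif, against 18.3% of 27025 genes. The muscle genes with the motif within the 100 bases before the start are shown because they include members that were lower and a member that was not. Each line gives those 100 bases on the gene's own strand, 5′ to 3′, with the motif in capitals.

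Atp2a1 (chr7:126463074-126463173, minus strand, difference -1.55): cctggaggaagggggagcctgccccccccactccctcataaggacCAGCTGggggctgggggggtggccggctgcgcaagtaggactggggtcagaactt
Pygm (chr19:6384308-6384407, plus strand, difference -1.16): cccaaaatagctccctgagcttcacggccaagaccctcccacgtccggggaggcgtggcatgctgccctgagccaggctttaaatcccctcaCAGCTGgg
Myh4 (chr11:67237712-67237811, plus strand, difference -1.07): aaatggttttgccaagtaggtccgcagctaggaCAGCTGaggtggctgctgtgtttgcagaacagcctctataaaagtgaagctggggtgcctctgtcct
Tnni1 (chr1:135799321-135799420, plus strand, difference -0.60): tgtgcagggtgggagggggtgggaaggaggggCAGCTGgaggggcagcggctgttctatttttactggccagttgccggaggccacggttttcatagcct
Mylpf (chr7:127211508-127211607, plus strand, difference -0.10): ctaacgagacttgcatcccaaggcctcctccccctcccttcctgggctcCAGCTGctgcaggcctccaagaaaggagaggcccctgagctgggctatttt

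The motif did not separate the members that were lower from those that were not. The 12 genes with it had a median difference of -0.60 (range -1.55 to -0.07) and 3 past 2-fold, and the 8 without it a median of -1.16 (range -1.89 to 0.13) and 4 past 2-fold. A match in this window is a description of the letters only.

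The same search was made for 3 other lists. For the adrenal cortex list, the half-site AGGTCA bound by Nr5a1 was searched on both strands; 3 of the 8 kept genes had windows, and 1 of them, Cyp11a1, had it, against 18.1% of all genes. It is shown as the one steroid gene with the site: the 100 bases before the start lie on the plus strand, and the half-site begins 28 bases before the start.

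Cyp11a1 (chr9:58014852-58014951, plus strand, difference 2.93): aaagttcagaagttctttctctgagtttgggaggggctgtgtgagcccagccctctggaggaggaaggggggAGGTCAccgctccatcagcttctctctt

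The CArG box of smooth muscle genes was found in 1 of 14 smooth muscle genes with windows, Myl9 (7.14%, against 1.81% of all genes). The circadian E-box CACGTG was found in 3 of 10 clock genes, Cry1, Per1 and Tef (30.0%, against 8.09%). Neither list had a member past 2-fold.

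Of the 28 lower genes 18 were in no list, and those described first are muscle genes picked by hand, with no test of a theme. Trdn, triadin, which anchors calsequestrin at the release channel, read 351 and 70.6 (-2.08). Ttn, the giant spring protein titin, read 1113 and 446 (-1.29). Fbxo32, the ubiquitin ligase atrogin-1 that is switched on in muscle wasting, read 199 and 43.1 (-1.86). Smtnl1, a smoothelin-like protein of muscle, read 81.0 and 19.8 (-1.44), Apobec2, a muscle member of the deaminase family, 186 and 58.6 (-1.44), and Nrap, a protein of forming myofibrils, 195 and 73.6 (-1.24).

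Other lower genes were the splicing regulator Rbfox1 (79.2 and 24.2, -1.24), the phosphatase Ptp4a3 (160 and 55.0, -1.31) and the M-band protein Myom1 (268 and 122, -1.05). Ppargc1a, the coactivator that drives mitochondrial biogenesis in muscle and brown fat, read 228 and 91.8 (-1.18). Mtch2, a mitochondrial outer membrane protein, read 1596 and 670 (-1.23). For both of these the probe sets of the gene disagreed, as described below.

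Metabolic lists did not share a side in the deposited scaling. The respiratory chain (16 of 27 kept genes above 0, median 0.08) and fatty acid and triglyceride synthesis (10 of 19, median 0.07) lay slightly above 0. Both medians changed sign with quantile normalization and with scaling to the hybridisation controls. The synthesis median also did so with each array centred on its median. Glycolysis and fatty acid oxidation lay below 0, and their medians stayed there under every alternative run. Among all kept genes, 48.5% were above 0 and 51.5% below. Of 19 glycolysis and glycogen genes 16 were below 0, with a median of -0.27. Pygm was the 1 past 2-fold, and Pfkm, muscle phosphofructokinase, read 312 and 152 (-0.96). Pygm and Eno3 are also in the skeletal muscle list, so the 2 lists are not separate. Of 24 fatty acid oxidation genes 17 were below 0, with a median of -0.16. The uncoupling protein Ucp3 of muscle mitochondria (165 and 93.7, -0.72) and the thioesterase Acot2 (132 and 63.8, -0.89) were among the lowest. Cpt1a, the liver form of the carnitine transferase that admits fatty acids to mitochondria, was higher at 69.4 and 161 (1.05), but its probe sets ran from -0.12 to 1.05 and the value turned to -0.12 without the probe sets that can cross-read.

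The arrays read as aorta by the markers of its wall. Smooth muscle actin (Acta2) read 2260 and 2679 (0.24), smooth muscle myosin (Myh11) 302 and 437 (0.51) and transgelin (Tagln) 826 and 1090 (0.39). None of 20 smooth muscle genes on the array was past 2-fold, and the median of 0.17 became -0.27 with scaling to the hybridisation controls. Itga8, an integrin of contractile cells, stood highest in that list at 15.5 and 39.4 (0.81), and desmin (Des), shared with striated muscle, lowest at 284 and 167 (-0.72). Itga8, under the filter in the control pool, was kept through the knockout pool alone and had to read higher.

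Endothelial genes were slightly lower as a list. Of 14 kept genes 13 were below 0, none by 2-fold, with a median of -0.22. Among all kept genes, 51.5% were below 0. The tight-junction gene Cldn5 read 226 and 139 (-0.64), von Willebrand factor (Vwf) 369 and 238 (-0.60) and the vascular cadherin Cdh5 260 and 230 (-0.16). Endoglin (Eng) was the exception at 124 and 137 (0.13). The median kept its side under all alternatives run, between -0.68 and -0.17, and no member reached the 2-fold mark in the deposited scaling.

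Genes of lipid-laden plaque macrophages were close to equal. Gpnmb, a glycoprotein of foam cells, read 1247 and 1229 (-0.02), Trem2, their lipid receptor, 80.5 and 88.1 (0.11), and the elastase Mmp12 363 and 309 (-0.22). All 12 genes of that list lay between -0.22 and 0.25. The cholesterol exporter Abcg1 read 453 and 403 (-0.16), and the lipid droplet coat Plin2 1908 and 1659 (-0.20). The lists of cholesterol efflux, cholesterol synthesis and scavenger receptors had medians of 0.07, 0.03 and 0.06, with no kept member past 2-fold.

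Matrix genes were close to equal too, with a few exceptions. Of 14 kept proteoglycan and plaque matrix genes 12 were above 0 and none past 2-fold, beside 48.5% of all kept genes above 0. The median of 0.30 became -0.13 with scaling to the hybridisation controls. The small proteoglycan lumican (Lum) read 417 and 692 (0.71) and fibronectin (Fn1) 887 and 1161 (0.38). Among proteases, stromelysin-1 (Mmp3) read 101 and 240 (1.14) and collagenase-3 (Mmp13) 19.3 and 59.8 (1.10), the 2 of 17 kept that were past 2-fold. Of all kept genes, 0.874% were at least 2-fold higher. Mmp13, under the filter in the control pool, was kept through the knockout pool alone and had to read higher. The collagen list had a median of 0.19, which also changed sign with that scaling.

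Markers of brown fat and heart muscle were bright in both pools. Ucp1, the uncoupling protein of brown fat, read 2598 and 2754 (0.08) and Cidea, its lipid droplet partner, 2532 and 2433 (-0.06). Of 9 kept brown adipocyte genes, however, 7 were below 0, beside 51.5% of all kept genes. Their median of -0.20 stayed below 0 under every alternative run. The lowest were Ppargc1a (-1.18), whose probe sets disagreed, Fabp3 (-0.53), Dio2 (-0.52) and Elovl3 (-0.42). Myh6, the atrial myosin heavy chain, read 743 and 1008 (0.43), and Nppa, atrial natriuretic peptide, 120 and 297 (1.20), the 1 of 12 heart muscle genes past 2-fold. Of those 12 genes 7 were above 0, with a median of 0.02, and Myl3 was lowest at -0.62. The adipocyte list had a median of 0.07 over 11 kept genes. Lung and erythroid lists had no kept member. Genes of fat and striated muscle were thus read in both pools, and the part of such neighbouring tissue in the differences of skeletal muscle, adrenal and lymphocyte genes was not tested.

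Agreement between probe sets of 1 gene was the only check within the arrays, and it covers hybridisation and annotation, not animals. Of 2272 genes with at least 2 kept probe sets, 1335 (58.8%) had all of them on the same side of 0. The brightest and second probe sets differed with a standard deviation of 0.29, and by more than 1 in 9 genes. That spread was 0.30 among the dimmest genes (mean signal up to 128) and 0.26 among the brightest (above 318). Across these genes, which are not independent replicates, Pearson's r between both probe sets was 0.60 and Spearman's rho 0.48.

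Counts of agreeing probe sets among the higher genes depend on the filter. Of the 62 higher genes 14 had at least 2 kept probe sets, 13 of them with all on the same side, but 10 of their 20 other kept probe sets passed through the knockout array alone and so had to read higher. With dim ones included, 25 of the higher genes had 47 other probe sets, of which 43 were above 0 and 20 past 2-fold, with a median of 0.86. The 10 that did not pass through the knockout array alone came from 6 genes, with 9 above 0, 8 past 2-fold and a median of 1.39. Low readings outside the filter included another probe set of Coro1a (3.72 and 3.18, -0.04) and another of Mcm2 (11.8 and 17.0, 0.25). The 3 probe sets of Star gave 2.87, 3.18 and 3.34, both of Ms4a1 2.71 and 2.83, both of Cyp21a1 1.12 and 1.61, and the 5 kept ones of Ighm between 1.39 and 2.40; all 3 of Star and both of Cyp21a1 were under the filter in the control pool.

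Of the 28 lower genes 8 had at least 2 kept probe sets; 5 had all on the same side, and 2, Fbxo32 (-1.86 and -1.62) and Ttn (-1.29 and -1.68), had all past 2-fold. Of their 15 other kept probe sets 3 passed through the control array alone. With dim ones included, 10 of the lower genes had 22 other probe sets, of which 16 were below 0 and 3 past 2-fold, with a median of -0.22.

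The remaining lower genes with several probe sets were uneven. The 4 kept probe sets of Trdn gave -2.08, -1.41, -0.79 and 0.48. The 5 of Ppargc1a ran from -1.18 to -0.01, and the 3 of Mtch2 gave -1.23, -0.30 and 0.00. The 15 other probe sets of the lower genes had a median of -0.53, against -1.20 for the brightest ones. No comparison between higher and lower genes is drawn from these counts, since the difference itself decided which probe sets passed the filter. Of the 9 skeletal muscle genes past 2-fold, none had a second kept probe set.

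**Figure D5:**
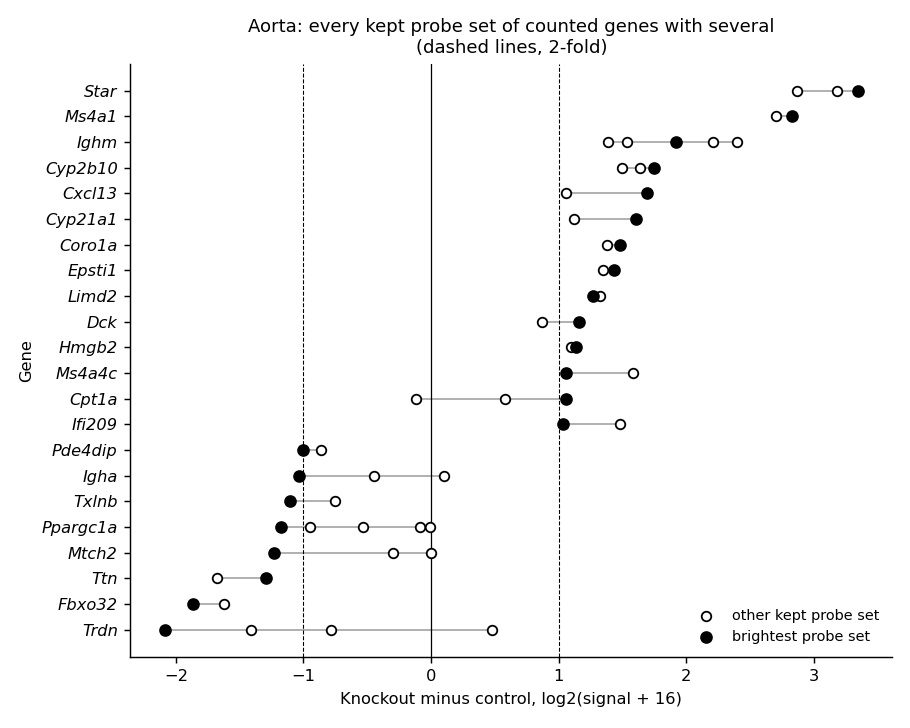
Difference, knockout minus control in log2(signal + 16) (x axis), of every kept probe set of the 22 counted genes with at least 2 (y axis); filled circles are the brightest probe set, open circles the others, and dashed lines mark 2-fold. All circles of Star, Ms4a1 and Ighm lie right of the upper line, while those of Trdn, Ppargc1a, Mtch2 and Igha come close to 0 or cross it.

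The same genes were read in liver, on another array type, in 2 control and 2 knockout samples of males of the same age and diet. With 2 against 2, an exact two-sided permutation test cannot go below 0.333, so the levels are given by overlap alone. Of 43 genes higher in the aorta that were kept in liver, 5 lay above all controls in both knockout livers, against 11.8% of all 15942 liver genes, and 9 lay below them, against 18.0%. Of 27 genes lower in the aorta, 3 (11.1%) lay below without overlap, against 18.0% of all liver genes, and 2 lay above, against 11.8%. None was 2-fold different in liver in the direction of the aorta.

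A few of these genes are given as examples only, and no pattern over the set is read from them. Star read 5.03 and 5.08 log2 units in control livers and 5.29 and 5.19 in knockout livers, a difference of 0.18. Ighm read 6.04 and 6.07 against 5.61 and 5.90 (-0.30), the opposite side from the aorta. Ly6d, higher in the knockout aorta, read 8.69 and 8.15 in control livers and 6.04 and 7.87 in knockout livers (-1.46), with a wide gap between the knockout livers. Coro1a and Cd52, also higher in the aorta, were lower in both knockout livers than in both controls (-0.56 and -0.52 on average in log2 units).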

How the data were processed

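Pooled aortic RNA was hybridised to Affymetrix Mouse Genome 430A 2.0 arrays as biotin-labelled cRNA, per the series' design text; the labels' labelling field names a sense-strand DNA kit for the same samples. The deposited aorta values are taken as linear signal intensity, already scaled, because the trimmed mean is 100.0 on both arrays; the scale was inferred from the values. The deposited liver values are on a log2 scale. Affymetrix Expression Console was used, per the submitters' processing notes; version and algorithm: not given in the sources used here. Depth does not apply to arrays, and their number, 1 for each genotype, limits the precision. No normalization by the authors was repeated.

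Of 22690 probe sets, 20393 had 1 gene symbol, 691 several and 1606 were not listed in the platform annotation; 64 control probe sets were left out. The offset was 16, the filter the 50th percentile of the brighter array, and the mark 2-fold; liver genes were kept above the 30th percentile of the mean. The 52 gene lists held 830 symbols, of which 734 matched and 548 were kept. The members, lists and rules were chosen with earlier results of these data known. Genes were named as Prkch, the 15 largest differences in each direction, and up to 4 members of each list with defining markers. Also named were up to 12 genes in each direction with at least 2 kept probe sets, all past 2-fold the same way. This last rule gave 12 higher and 2 lower genes, and it left dim probe sets out. Other named genes were chosen after their values were seen. Alternatives changed the offset, scaling, filter, mark and probe set choice. Python 3.11.15, numpy 2.4.6 and pandas 2.3.3 were used. Promoters came from RefSeq.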

Additional observations from a re-analysis of the deposited data

Results flagged for a closer look

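Probe sets without a single gene symbol were outside the gene counts. Of the 922 such probe sets that passed the filter, 22 were at least 2-fold higher in the knockout pool (8 with several symbols and 14 not listed) and 4 were lower. They are given because they hold a signal above the control pool in data that the gene comparison does not use. Probe set 1423556_at, not listed in the annotation, read 4.01 (control) and 345 (knockout), a difference of 4.17. Probe set 1424631_a_at, also not listed, read 31.5 and 375, a difference of 3.04. Probe set 1427455_x_at, with several symbols, read 290 and 1519, a difference of 2.32.

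The added control transcripts also differed between the arrays. The hybridisation controls had a median difference of 0.51, and the dap poly-A control reached 2.03 on its highest probe set. Transcripts of the mouse were not scaled to either in the values reported. The part of this difference in the counts was not tested beyond the scaling given in the next part.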

How the results depend on the processing

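With an offset of 4 the counts were 100 higher and 49 lower, with 64 they were 25 and 12, at a 3-fold mark 24 and 4, and at a 1.5-fold mark 220 and 167. The higher count was 35 with the filter at the 75th percentile and 29 with both arrays above the filter, and probe set agreement was 65.3% at the 75th percentile. Scaling to the hybridisation controls, chosen after seeing the data, gave 30 higher and 191 lower and medians of 1.18 for B cell, 0.89 for adrenal cortex, 0.16 for MHC class II and -1.11 for skeletal muscle genes. The B cell median was 1.97 and 0.92 with offsets of 4 and 64, 1.96 without probe sets that can cross-read or at the 75th percentile, 2.36 with both arrays above the filter and 1.14 with no filter. The adrenal cortex median was 1.88 and 0.61 with offsets of 4 and 64, 1.78 at the 75th percentile, 0.34 with both arrays above the filter and 0.77 with no filter. Cpt1a turned to -0.12 without probe sets that can cross-read; the filters keep fewer genes by construction, and the cause of the other shifts was not tested. Under the 6 alternatives of offset, scaling and probe set choice fixed at the start, 24 of 62 higher and 10 of 28 lower genes stayed past 2-fold. Leaving out 1 liver array gave 6 to 16 higher (14.0% to 37.2%) and 5 to 12 lower (18.5% to 44.4%) aorta genes without overlap in the same direction, beside 24.5% to 30.5% and 32.2% to 42.1% of all liver genes, since fewer arrays overlap less often. No paired analysis was possible because each genotype had 1 aorta array. With 1 pool of 4 mice for each genotype, no spread between animals was measured.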
